A study of Mus musculus with 14 samples.

Results

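The genes described here are 10 genes of antigen presentation by MHC class I: B2m, Tap1, Tap2, Tapbp, Psmb8, Psmb9, Psmb10, Psme1, Psme2 and Erap1. They were chosen by name from what is known of the pathway, as 10 of the 19937 mouse genes that had at least 1 probe set with a single gene symbol. Each of the 10 had 1 such probe set, and all 10 were among the 13641 genes tested. Expression was measured on 14 single-channel Affymetrix arrays, 1 per sample of flow-sorted T cells from C57BL/6 mice. The samples fall into 4 groups. CD8+ lymphocytes from spleens of ENK KO mice gave 5 arrays, 2 labelled female and 2 months old and 3 labelled male and 6, 7 and 9 months old. CD8+ lymphocytes from spleens of wild-type (WT) mice gave 4 arrays, all labelled 7 months old and 1 of them female. CD4+CD8+ lymphocytes from thymi of ENK KO mice gave 2 arrays, from a female of 2 months and a male of 7 months. CD4+CD8+ lymphocytes from thymi of WT mice gave 3 arrays, from 1 female and 2 males of 7 months. The labels do not spell out ENK, the series title names Engrailed-2, and the sources used here do not give the construct of the knockout. Within ENK KO, age and sex cannot be told apart, since every sample labelled 2 months old was female and every older one male.

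Cells display fragments of their own proteins on MHC class I molecules, where CD8+ T cells read them. The proteasome cuts the proteins, a transporter carries the peptides into the endoplasmic reticulum, and aminopeptidases trim them before they are loaded on a heavy chain paired with beta-2 microglobulin. In haematopoietic cells, and in other cells exposed to interferon gamma, inducible catalytic subunits take the place of the constitutive ones and form the immunoproteasome, and many of these genes respond to IRF1 and to the transactivator NLRC5. Thymocytes at the CD4+CD8+ stage are being selected on MHC molecules of the thymic stroma, and their own class I surface level is known to be low compared with that of mature T cells.

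The members sit in a few places of the genome. In the RefSeq gene table of the mouse assembly GRCm38.p6, Psmb9, Tap1, Psmb8 and Tap2 are 4 consecutive protein-coding genes on chromosome 17, inside the major histocompatibility complex, and Tapbp lies on the same chromosome. Psme1 and Psme2 are both on chromosome 14, B2m is on chromosome 2, Psmb10 on chromosome 8 and Erap1 on chromosome 13. RefSeq promoter windows of 300 bases (250 before and 50 after the start of the gene) were available for 9 of the 10 members, Tap2 being the other. A motif that interferon regulatory factors are known to bind, 2 copies of GAAA with any 2 bases between them, on either strand, was in the window of 3 of these 9 genes (B2m, Psme1 and Erap1) and in 3.99% of all 27025 genes with a window. The CCAAT box, in either orientation, was in the windows of 4 of the 9 (B2m, Tap1, Tapbp and Psmb9) and in 41.1% of all genes. The match of Tap1 lies in bases that its window shares with that of Psmb9, so it counts for both genes. A match describes these letters and is not a test of binding.

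The windows with the interferon motif are shown for the motif, and the Tap1 window because it is shared with a second member. Members whose window lacked the motif were also higher in spleen than in thymus, as described below. A link between motif and level was not tested. Capitals mark the motif in the first 3 sequences. They lie at chr2:122147437-122147736, chr14:55578244-55578543 and chr13:74639603-74639902 of GRCm38.p6, all on the plus strand. In the fourth, at chr17:34187306-34187605 on the plus strand, capitals mark the 225 bases between the starts of Psmb9 and Tap1, which are transcribed away from each other. Of the 300 bases, 275 also belong to the window of Psmb9 on the minus strand.
B2m: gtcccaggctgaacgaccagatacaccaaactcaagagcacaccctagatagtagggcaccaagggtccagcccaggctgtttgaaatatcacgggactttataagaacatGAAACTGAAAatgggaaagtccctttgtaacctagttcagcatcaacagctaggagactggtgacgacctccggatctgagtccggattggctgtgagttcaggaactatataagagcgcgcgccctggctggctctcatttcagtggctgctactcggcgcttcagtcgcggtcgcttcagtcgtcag
Psme1: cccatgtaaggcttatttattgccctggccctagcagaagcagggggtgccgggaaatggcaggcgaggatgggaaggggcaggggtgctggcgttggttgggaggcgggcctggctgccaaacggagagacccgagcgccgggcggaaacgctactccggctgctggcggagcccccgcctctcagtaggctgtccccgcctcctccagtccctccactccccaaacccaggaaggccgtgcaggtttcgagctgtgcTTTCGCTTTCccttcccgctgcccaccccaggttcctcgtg
Erap1: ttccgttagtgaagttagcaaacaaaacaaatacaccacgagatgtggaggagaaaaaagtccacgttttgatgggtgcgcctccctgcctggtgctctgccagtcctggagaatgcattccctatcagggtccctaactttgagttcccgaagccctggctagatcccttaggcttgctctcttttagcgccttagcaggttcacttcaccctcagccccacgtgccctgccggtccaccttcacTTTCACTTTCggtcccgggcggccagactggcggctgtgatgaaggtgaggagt
Tap1: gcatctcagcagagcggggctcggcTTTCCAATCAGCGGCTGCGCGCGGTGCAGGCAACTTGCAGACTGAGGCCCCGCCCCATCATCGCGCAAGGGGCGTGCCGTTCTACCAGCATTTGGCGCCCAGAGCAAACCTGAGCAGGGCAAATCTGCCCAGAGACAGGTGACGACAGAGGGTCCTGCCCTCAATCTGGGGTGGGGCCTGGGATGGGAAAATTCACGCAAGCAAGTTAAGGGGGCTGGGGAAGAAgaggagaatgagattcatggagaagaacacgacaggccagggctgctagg

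Expression is given on the log2 scale per probe set, so that a difference of 1 is a change by a factor of 2. Median values of the arrays lay between 7.14 and 7.25. En2 was at or under 6.76, the level that a gene had to exceed on 2 arrays to be tested, on 12 of the 14 arrays (6.12 to 7.87 in spleen ENK KO, 6.19 to 6.93 in spleen WT, 6.01 to 6.14 in thymus ENK KO, and 6.01 on all thymus WT arrays). It could not be used to check the genotype labels. The labels of 2 libraries went against their markers. On spleen ENK KO replicate 28, Cd4 was at 12.20 and Cd8a at 6.78, where the remaining spleen arrays spanned 6.61 to 6.92 and 12.06 to 12.53. Foxp3, a gene of regulatory T cells, was at 9.87 there, and between 7.34 and 7.48 on the remaining ones. Spleen WT replicate 22 is labelled female, and its Xist was at 5.90, while the spleen ENK KO arrays labelled female were at 12.36 and 12.55 and the thymus arrays labelled female at 13.37 (ENK KO) and 13.28 (WT). With both libraries left out, 9 of the 10 members were called higher in spleen than in thymus in each genotype, and 0 of 10 were called between genotypes in spleen or in thymus. On all arrays, 27.4% (ENK KO) and 30.5% (WT) of all genes tested were higher in spleen. The shares called between genotypes on all arrays were 0.00733% in spleen and 0.0147% in thymus. Values without replicate 28 stand beside many of the results below. Rag1, a gene of immature lymphocytes, lay between 6.00 and 6.36 on the spleen arrays and between 12.83 and 13.16 on the thymus arrays. In bulk samples, fewer cells of a type and less RNA per cell cannot be told apart.

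Spleen CD8+ cells carried more of the class I presentation transcripts than thymus CD4+CD8+ cells in both genotypes. In ENK KO mice 9 of the 10 members were higher in spleen and 0 lower by limma with Benjamini-Hochberg adjustment, where 27.4% of all genes tested were higher and 37.1% lower. In WT mice 9 of 10 were higher and 0 lower, where 30.5% of all genes were higher and 38.2% lower. The median log2 difference of the 10 genes, spleen minus thymus, was 1.32 in ENK KO and 1.28 in WT, beside -0.059 and -0.045 over all genes tested. On all 9 spleen arrays the level exceeded that of all 5 thymus arrays for 9 of 10 members, as it did for 24.4% of all genes tested. Tap2 was the exception in each of these counts. Without replicate 28 the counts were again 9 of 10 higher in ENK KO (27.9% of all genes) and in WT (31.3%), with a median of 1.35 in ENK KO. The differences in ENK KO were then 1.45 for Tap1, 0.21 for Tap2, 1.66 for Tapbp, 1.20 for B2m, 0.66 for Psmb8, 1.33 for Psmb9, 1.02 for Psme1 and 2.26 for Psme2, each within 0.03 of the value on all arrays. Psmb10 and Erap1 moved further and are given both ways below. Without thymus WT replicate 7 the WT count was 10 of 10, where the share of all genes on all arrays was 30.5%.

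**Figure D1:**
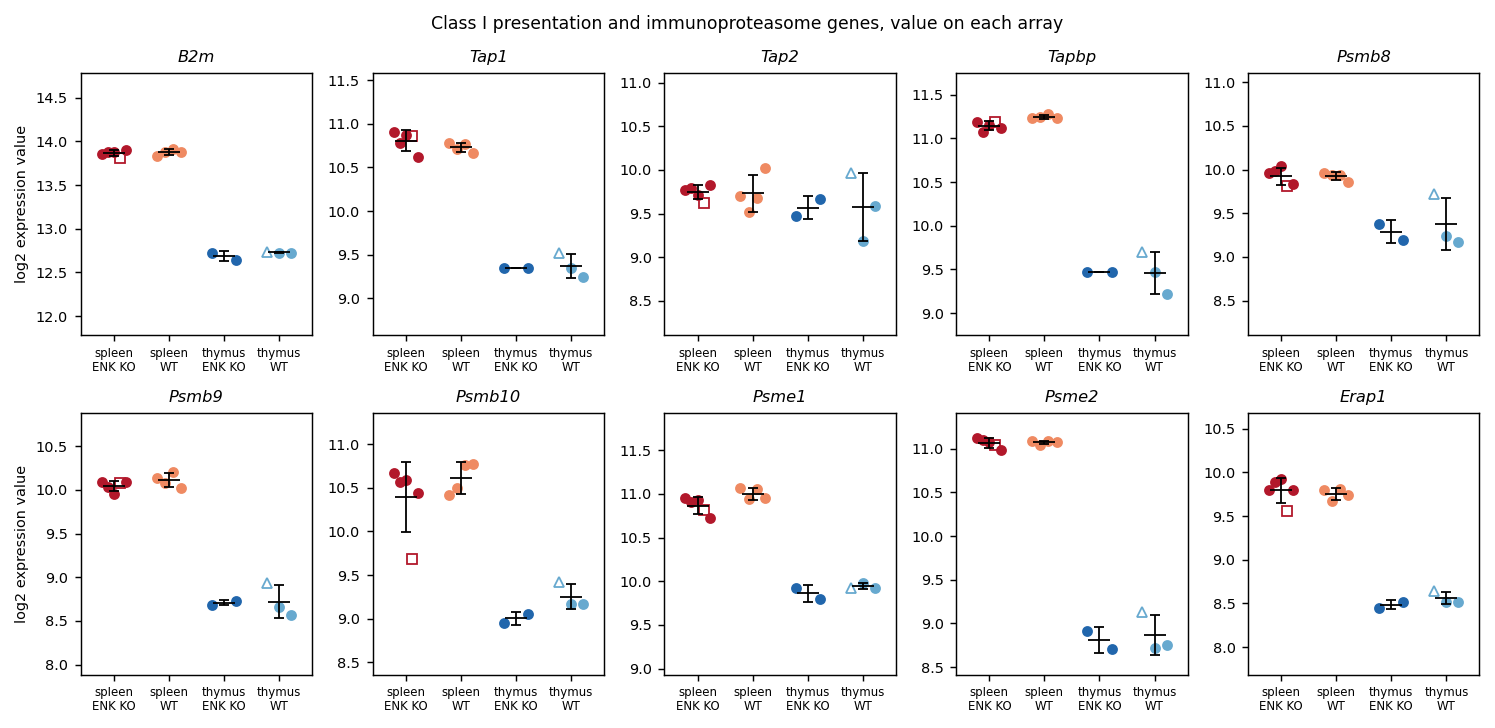
Log2 expression value (vertical axis, each panel spanning 3 log2 units) of the 10 genes on each of the 14 arrays, by group (horizontal axis). Points are arrays, bars the mean and SD of the group, the open square spleen ENK KO replicate 28 and the open triangle thymus WT replicate 7. In every panel but that of Tap2, all spleen arrays lie above all thymus arrays.

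Tap1 and Tap2 encode the paired chains of the peptide transporter. Tap1 was at 10.62, 10.78, 10.86, 10.87 and 10.91 in spleen ENK KO and at 10.66, 10.71, 10.76 and 10.78 in spleen WT. In thymus it was at 9.35 on both ENK KO arrays and at 9.25, 9.35 and 9.52 in WT. All spleen arrays stood above all thymus arrays, and the genotypes overlapped within each tissue. The difference between spleen and thymus was 1.46 ± 0.08 (SE) in ENK KO and 1.36 ± 0.08 in WT (limma, adjusted p = 7.51e-09 and 5.04e-09). Tap2 was at 9.62, 9.71, 9.77, 9.79 and 9.82 in spleen ENK KO, at 9.52, 9.68, 9.70 and 10.03 in spleen WT, at 9.47 and 9.66 in thymus ENK KO, and at 9.19, 9.58 and 9.97 in thymus WT. Spleen and thymus overlapped for this gene. Its difference was 0.18 ± 0.17 in ENK KO (95% interval -0.19 to 0.54) and 0.15 ± 0.15 in WT (-0.18 to 0.48), with limma adjusted p = 0.374 and 0.388. The WT value rested on single thymus arrays: it was -0.042 without thymus WT replicate 32, and 0.35 with limma adjusted p = 0.0391 without thymus WT replicate 7.

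Tapbp encodes tapasin, which bridges the transporter and the class I molecule during loading. It was at 11.07, 11.12, 11.15, 11.19 and 11.19 in spleen ENK KO and at 11.23, 11.24, 11.24 and 11.28 in spleen WT. In thymus it was at 9.47 on both ENK KO arrays and at 9.21, 9.47 and 9.70 in WT. The tissues were widely apart, by 1.67 ± 0.09 in ENK KO and 1.79 ± 0.08 in WT (limma, adjusted p = 5.43e-09 and 9.64e-10). Folds were 3.19 and 3.45.

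B2m encodes the light chain of every classical class I molecule. It was at 13.81, 13.86, 13.88, 13.88 and 13.90 in spleen ENK KO, at 13.83, 13.88, 13.88 and 13.92 in spleen WT, at 12.64 and 12.72 in thymus ENK KO, and at 12.73 on all 3 thymus WT arrays. Its replicates lay close together, with an SD within groups of 0.034, at the 2.13rd percentile of the genes tested. The difference between spleen and thymus was 1.19 ± 0.03 in ENK KO and 1.15 ± 0.03 in WT (limma, adjusted p = 1.82e-11 and 7.95e-12), folds of 2.27 and 2.22.

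Erap1 encodes the aminopeptidase that trims peptides in the endoplasmic reticulum. It was at 9.55, 9.80, 9.80, 9.89 and 9.93 in spleen ENK KO, where the lowest array was replicate 28. The levels were 9.67, 9.74, 9.80 and 9.81 in spleen WT, 8.45 and 8.52 in thymus ENK KO, and 8.52, 8.52 and 8.65 in thymus WT. Spleen exceeded thymus by 1.31 ± 0.09 in ENK KO, or 1.37 ± 0.06 without replicate 28, and by 1.19 ± 0.08 in WT (limma, adjusted p = 3.06e-08, 2.28e-09 and 2.47e-08).

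The inducible catalytic subunits of the proteasome did not all differ by the same amount. Psmb8 was at 9.81, 9.83, 9.96, 9.98 and 10.04 in spleen ENK KO, at 9.86, 9.94, 9.94 and 9.96 in spleen WT, at 9.19 and 9.38 in thymus ENK KO, and at 9.17, 9.24 and 9.72 in thymus WT. The tissues did not overlap, but the lowest spleen array, at 9.81, and the highest thymus array, WT replicate 7 at 9.72, were close. Spleen exceeded thymus by 0.64 ± 0.12 in ENK KO and 0.55 ± 0.11 in WT (limma, adjusted p = 5.11e-04 and 6.88e-04), folds of 1.55 and 1.46. Psmb9 was at 9.95, 10.03, 10.08, 10.09 and 10.09 in spleen ENK KO, at 10.03, 10.08, 10.13 and 10.21 in spleen WT, at 8.69 and 8.73 in thymus ENK KO, and at 8.56, 8.67 and 8.93 in thymus WT. Here the tissues were far apart, by 1.34 ± 0.08 in ENK KO and 1.39 ± 0.08 in WT (limma, adjusted p = 2.1e-08 and 4.84e-09).

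Psmb10 was at 9.69, 10.44, 10.56, 10.59 and 10.67 in spleen ENK KO, at 10.42, 10.50, 10.76 and 10.77 in spleen WT, at 8.95 and 9.06 in thymus ENK KO, and at 9.17, 9.17 and 9.42 in thymus WT. The value of 9.69 belonged to replicate 28, and the next lowest spleen array was at 10.42. Spleen exceeded thymus by 1.39 ± 0.21 in ENK KO, or 1.56 ± 0.11 without replicate 28, and by 1.36 ± 0.19 in WT (limma, adjusted p = 8.31e-05, 1.23e-07 and 3.79e-05).

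Psme1 and Psme2 encode the alpha and beta subunits of the proteasome activator that opens the ends of the particle. Psme1 was at 10.72, 10.82, 10.91, 10.93 and 10.95 in spleen ENK KO, at 10.94, 10.95, 11.05 and 11.07 in spleen WT, at 9.80 and 9.93 in thymus ENK KO, and at 9.92, 9.93 and 9.98 in thymus WT. Psme2 was at 10.99, 11.04, 11.08, 11.10 and 11.12 in spleen ENK KO, at 11.05, 11.08, 11.08 and 11.08 in spleen WT, at 8.71 and 8.92 in thymus ENK KO, and at 8.72, 8.75 and 9.13 in thymus WT. Both separated the tissues without overlap. The difference of Psme1 was 1.00 ± 0.07 in ENK KO and 1.06 ± 0.06 in WT (limma, adjusted p = 3.97e-08 and 7.89e-09). That of Psme2 was 2.26 ± 0.09 and 2.21 ± 0.09 (limma, adjusted p = 4.63e-10 and 1.78e-10), folds of 4.78 and 4.62. Among all genes tested, this difference stood at percentile 98.7 in ENK KO and 98.5 in WT.

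The constitutive catalytic subunits, which the inducible ones replace, did not share this direction. Psmb7, whose place Psmb10 takes, was lower in spleen, with a difference of -0.58 ± 0.06 in ENK KO and -0.61 ± 0.06 in WT (limma, adjusted p = 3.47e-06 and 6.68e-07). It lay between 9.01 and 9.20 in spleen ENK KO, between 9.08 and 9.21 in spleen WT, at 9.64 and 9.76 in thymus ENK KO, and between 9.73 and 9.80 in thymus WT. Psmb6, the counterpart of Psmb9, had a difference of -0.40 in ENK KO (limma, adjusted p = 0.008) and -0.17 in WT (adjusted p = 0.154). The ENK KO value rested on thymus ENK KO replicate 1 and was -0.21 without it (limma, adjusted p = 0.193). Psmb5, the counterpart of Psmb8, had differences of -0.12 and -0.22 (limma, adjusted p = 0.51 and 0.176). Psmb11, the catalytic subunit of the proteasome of thymic cortical epithelium, was between 6.79 and 6.98 on all arrays, with differences of 0.019 and 0.069 (limma, adjusted p = 0.755 and 0.2). Without replicate 28 the ENK KO differences were -0.56 for Psmb7, -0.43 for Psmb6, -0.058 for Psmb5 and 0.034 for Psmb11, with the same 2 of the 4 called.

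**Figure D2:**
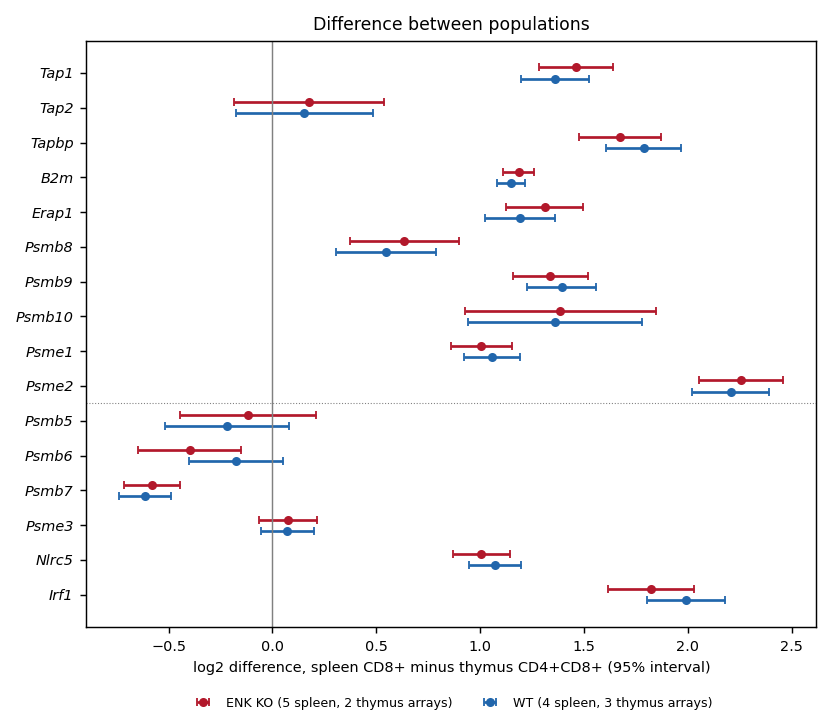
Log2 difference, spleen CD8+ minus thymus CD4+CD8+ (horizontal axis), with 95% intervals from limma, in ENK KO and in WT mice. The 10 genes of class I presentation stand above the dotted line and 6 related genes below it. The interval of Tap2 includes 0 in both genotypes, and Psmb7 lies on the opposite side of 0 from Psmb10.

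The ratio of each inducible subunit to its counterpart was taken within each array, a measure that a shift of the whole array does not move. These ratios show unequal change of the probe sets and no ratio of transcripts. Relative to the thymus WT mean, the log2 ratio of Psmb9 to Psmb6 lay between 1.49 and 1.73 in spleen ENK KO, between 1.49 and 1.67 in spleen WT, at -0.34 and 0.08 in thymus ENK KO, and between -0.05 and 0.03 in thymus WT. The ratio of Psmb10 to Psmb7 lay between 1.15 and 2.06 in spleen ENK KO, between 1.81 and 2.13 in spleen WT, at -0.29 and -0.07 in thymus ENK KO, and between -0.12 and 0.16 in thymus WT. The value of 1.15 belonged to replicate 28, and the next lowest spleen ENK KO array was at 1.80. The ratio of Psmb8 to Psmb5 lay between 0.67 and 1.11 in spleen ENK KO, between 0.56 and 0.90 in spleen WT, at 0.09 and 0.18 in thymus ENK KO, and between -0.15 and 0.08 in thymus WT. In none of the 3 did a thymus array reach a spleen array.

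Over the 9 spleen and 5 thymus arrays the ratio differed by 1.64 for Psmb9 to Psmb6 (a factor of 3.12), by 1.94 for Psmb10 to Psmb7 (3.84) and by 0.78 for Psmb8 to Psmb5 (1.72). The exact two-sided permutation p was 9.99e-04 for each, adjusted over 4 ratios (the fourth being Tap1 to Tap2), which is the smallest that 9 against 5 arrays can give. Within a genotype the smallest possible exact p is 0.0952 (ENK KO) and 0.0571 (WT), and each ratio was at it. These tests were added after the values of the single genes had been seen. Psmb8, Psmb9 and Psmb10 each already separated all spleen from all thymus arrays there, so that the p of their ratios is no further support. Without replicate 28 the ratios differed by 1.65, 2.03 and 0.76 in the same order, each with an exact two-sided permutation p of 0.00155, the smallest that 8 against 5 arrays can give. The ratio of Tap1 to Tap2 was chosen for the contrast between these genes, so that its p is no support either. It was higher in spleen by 1.25, a factor of 2.38, or by 1.22 without replicate 28.

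**Figure D3:**
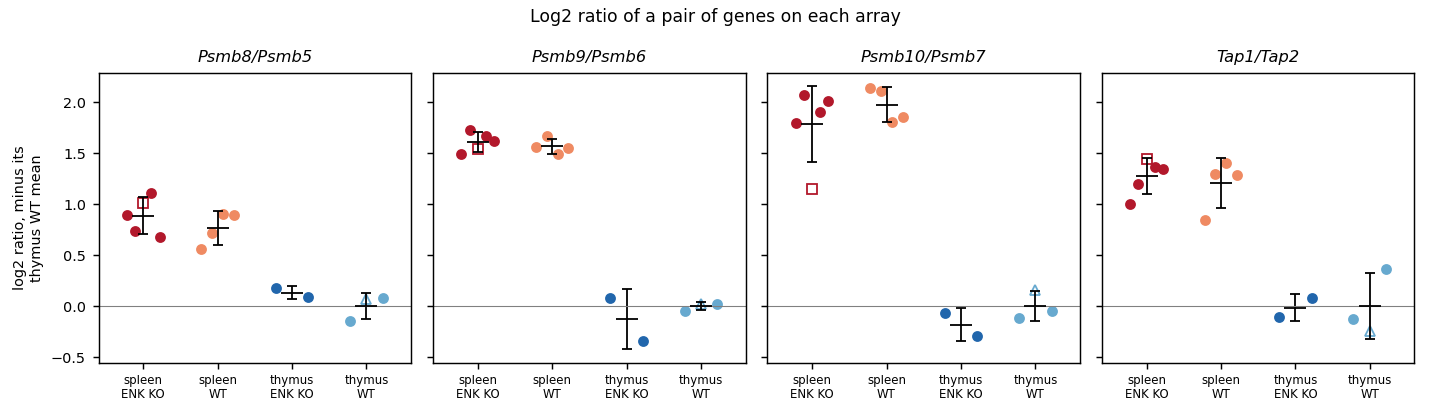
Log2 ratio of a pair of genes within each array, minus the thymus WT mean of that ratio (vertical axis), by group (horizontal axis). Points are arrays, bars the mean and SD, the open square spleen ENK KO replicate 28 and the open triangle thymus WT replicate 7. In all 4 panels the spleen arrays lie above the thymus arrays.

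The other parts of the proteasome were mixed. Of 11 alpha and other beta subunits of the core particle, 3 were higher and 4 lower in WT spleen than in WT thymus, with a median of -0.067. Examples were Psma6 at -1.09, Psma3 at 0.75, Psma1 at -0.44 and Psma7 at 0.24. Of 3 other activators, 0 were higher and 1, Psme4, was lower, at -0.53. The count of these activators that were higher was 2 with quantile normalization and 1 without thymus WT replicate 32 or without spleen ENK KO replicate 6. Of 5 assembly factors, 1 was higher (Psmg4, 0.49) and 0 lower, or 1 lower without spleen WT replicate 34.

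The heavy chains that B2m pairs with were measured in part. H2-K1 and H2-D1, the classical heavy chains, were not analysed here because no probe set carries either symbol alone. Of 9 other heavy chain genes tested, 6 were higher and 2 lower in spleen in ENK KO, and 4 were higher and 2 lower in WT, with medians of 0.62 and 0.41. Without replicate 28 the ENK KO count was 5 higher and 2 lower, with a median of 0.60, since H2-Q4 was no longer called (0.95, limma adjusted p = 0.0613, against 0.99 and adjusted p = 0.0399 on all arrays). H2-M3, which presents formylated peptides, differed by 1.37 in ENK KO and 1.31 in WT (limma, adjusted p = 2.51e-08 and 1.23e-08). H2-T10 differed by 0.73 and 0.84, and H2-M5 by 0.62 and 0.71. Mr1, which presents vitamin metabolites to innate-like T cells, was lower in spleen, with differences of -3.30 in ENK KO and -3.40 in WT (limma, adjusted p = 1.53e-10 and 3.62e-11). Signals of such similar genes as the H2-Q and H2-T families cannot be separated with certainty by array probes.

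Of 15 helpers of loading and trimming, 5 were higher and 4 lower in WT spleen, with a median of 0.045. Calr, the chaperone calreticulin, was higher by 0.88 and Lap3, a cytosolic leucine aminopeptidase, by 1.81. Npepps, another cytosolic aminopeptidase, was lower, at -1.12, and so was Blmh, at -0.55.

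Regulators of the class I genes differed in both directions. Nlrc5, the class I transactivator, lay between 11.61 and 11.85 in spleen ENK KO and between 11.62 and 11.73 in spleen WT. In thymus it was at 10.67 and 10.73 in ENK KO and between 10.56 and 10.68 in WT. It was higher in spleen by 1.01 ± 0.06 in ENK KO and 1.07 ± 0.06 in WT (limma, adjusted p = 2.16e-08 and 4.05e-09). These values come from its probe set of highest mean, and with the mean of its probe sets the differences were 2.90 and 3.09. Nlrc5 was the 1 gene that was higher among 9 of the transactivator and its DNA-binding partners, while 7 were lower in both genotypes, with medians of -0.61 in ENK KO and -0.73 in WT. Among these were Nfyb, at -1.06 and -1.13, Creb1, at -0.67 in both, and Rfxap, at -0.65 and -0.73.

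Irf1 lay between 10.94 and 11.27 in spleen ENK KO and between 10.98 and 11.31 in spleen WT, against 9.19 and 9.37 in thymus ENK KO and 9.08 to 9.23 in thymus WT. It was higher in spleen by 1.82 ± 0.10 in ENK KO and 1.99 ± 0.09 in WT (limma, adjusted p = 3.65e-09 and 4.98e-10), and by 1.18 and 1.34 with the mean of its probe sets. Of 10 genes of the interferon gamma receptor, its kinases and the IRF and STAT factors, 5 were higher and 4 lower in each genotype. Irf9 differed by 1.30 in ENK KO and 1.31 in WT, Jak1 by 0.76 and 0.79, and Irf8 by 0.69 and 0.93. All 4 subunits of NF-kappaB tested were higher in spleen in both genotypes, with Relb at 1.02 and 1.12, Rel at 1.04 and 0.95, Nfkb2 at 0.74 and 0.93 and Rela at 0.73 and 0.68. The counts of these 3 lists of regulators in ENK KO were the same without replicate 28, where Nlrc5 differed by 1.03 and Irf1 by 1.83. Nfkb1 had no single-symbol probe set and was not analysed here.

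Markers of antigen presenting cells moved with the tissues. Of 6 (H2-Aa, H2-Ab1, H2-Eb1, Cd74, Ciita and Itgax), 5 were higher in spleen in both genotypes. Their summed log2 level was 44.8 to 50.4 in spleen ENK KO, 49.4 to 52.4 in spleen WT, 40.2 to 41.6 in thymus ENK KO, and 40.8 to 41.6 in thymus WT. H2-Aa, H2-Ab1 and Itgax were under 6.76 on all thymus arrays. Of 4 B cell markers, Ms4a1 and Cd79a were higher in spleen in both genotypes, and the summed log2 level was 28.4 to 32.9 in spleen ENK KO, 31.3 to 33.4 in spleen WT, 27.8 to 28.3 in thymus ENK KO, and 27.8 to 28.4 in thymus WT. Of 2 platelet and red cell markers tested, both were higher in spleen, Ppbp by 1.63 in ENK KO and 2.99 in WT and Alas2 by 1.33 and 1.98. The summed log2 level of that list, with Pf4, which was under 6.76 on all arrays, was 19.5 to 21.6 in spleen ENK KO, 22.6 to 23.1 in spleen WT, 17.4 to 17.5 in thymus ENK KO, and 17.1 to 17.8 in thymus WT. Klrk1, a receptor of NK cells and activated CD8+ T cells, was higher by 2.01 in ENK KO and 2.87 in WT, while the NK cell markers Ncr1 and Klrb1c were under 6.76 on all arrays. Of 5 macrophage, monocyte and neutrophil markers, 2 were higher (Cd68 and S100a9) and 1 lower (Itgam) in both genotypes. Of 3 thymic epithelium markers tested, 0 were called. Like H2-Aa, H2-Ab1 and Itgax, the markers Ms4a1, Cd79a, Ppbp and Klrk1 were under 6.76 on all thymus arrays. All of these genes passed the filter through spleen arrays alone. Their calls and differences are therefore set against low values in thymus and are no support. The part of the cells with these markers in the difference between tissues was not tested.

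A limit of every comparison between tissues lies in how the table was made. Of 28213 probe sets, 0 had a value shared exactly between a spleen and a thymus array, while 24.6% to 30.5% of values were identical between any 2 thymus arrays and 4.32% to 7.85% between any 2 spleen arrays. The median polish of RMA can give equal values to arrays summarised together. No source used here says whether the tissues were summarised apart. If they were, tissue and summarisation cannot be told apart, and the differences within a tissue are not touched. The tests within a tissue draw on a spread estimated over the arrays of both tissues.

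ENK KO and WT cells of the same tissue did not differ detectably in any of the 10 genes. In spleen 0 of 10 passed limma's test, beside 0.00733% of all genes tested (1 gene), and 1 of 10 had an unadjusted p under 0.05, beside 8.37% of all genes. In thymus 0 of 10 passed, beside 0.0147% of all genes (2 genes), and 0 of 10 had an unadjusted p under 0.05, beside 3.53%. The median log2 difference of the 10 genes in spleen, ENK KO minus WT, was -0.0077, beside -0.010 over all genes, and 7 of 10 were below 0. In thymus the median was -0.050, with 9 of 10 below 0, while 7101 of the 13641 genes tested were below 0. Many of these thymus signs rested on WT replicate 7. Without it Tap1 (0.049), Tap2 (0.18), Tapbp (0.13), Psmb8 (0.083), Psmb9 (0.095) and Psme2 (0.074) were above 0. B2m, Psmb10, Psme1 and Erap1 stayed below 0. The spleen count was also 0 of 10 without replicate 28, beside 0.0147% of all genes.

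**Figure D4:**
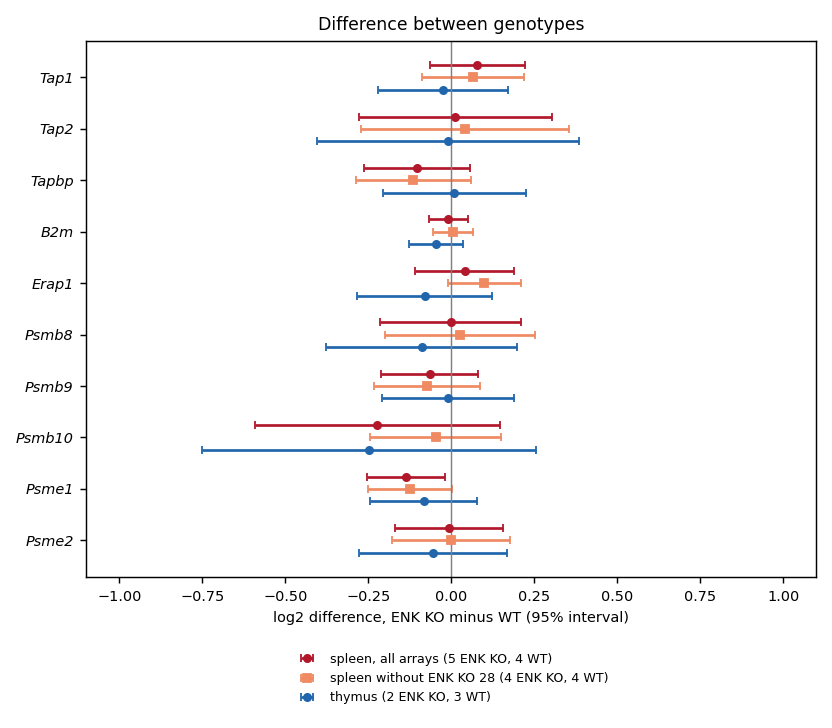
Log2 difference, ENK KO minus WT (horizontal axis), with 95% intervals from limma, for the 10 genes in spleen on all arrays, in spleen without replicate 28 and in thymus. All thymus intervals and all spleen intervals but that of Psme1 on all arrays include 0, and those of Psmb10 are the widest on all arrays.

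Psme1 had the smallest p in spleen. Its difference was -0.14 ± 0.05 (95% interval -0.26 to -0.02), with a limma unadjusted p = 0.0258 and adjusted p = 0.595. Psme1 values of ENK KO and WT spleens overlapped, and without replicate 28 the difference was -0.13 (limma unadjusted p = 0.051). Tapbp was the 1 member with all spleen ENK KO arrays below all WT arrays, a pattern seen in 0.814% of all genes tested. Its difference was small, -0.10 ± 0.07 (-0.26 to 0.06), with limma adjusted p = 0.704. No member had all spleen ENK KO arrays above all WT arrays, a pattern seen in 0.894% of all genes.

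Psmb10 had the largest difference in spleen among the 10 genes, -0.22 ± 0.17 (95% interval -0.59 to 0.15), with limma adjusted p = 0.725. It rested on replicate 28, and without that array it was -0.047 ± 0.09 (-0.25 to 0.15; limma adjusted p = 0.875). Erap1 also moved with this array, to 0.10 ± 0.05 without it (limma adjusted p = 0.518), against 0.040 ± 0.07 with it. The remaining differences in spleen were 0.079 for Tap1, 0.013 for Tap2, -0.0089 for B2m, -0.0020 for Psmb8, -0.065 for Psmb9 and -0.0065 for Psme2. The interval of B2m was the narrowest, from -0.07 to 0.05. Without replicate 28 these 6 differences were 0.066, 0.042, 0.0053, 0.026, -0.074 and -1.8e-04 in the same order, and that of Tapbp was -0.11.

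In thymus the differences ranged from -0.25 for Psmb10 to 0.0093 for Tapbp. B2m and Psmb10 had both ENK KO arrays below all 3 WT arrays, a pattern seen in 5.21% of all genes tested, and 0 members had both above, a pattern seen in 4.04%. B2m differed by -0.045 ± 0.04 (95% interval -0.13 to 0.04) and Psmb10 by -0.25 ± 0.23 (-0.75 to 0.25), with limma adjusted p = 1 for both. Leaving out spleen ENK KO replicate 28, which enters the shared estimate of spread, kept the Psmb10 difference and narrowed its interval to -0.50 to 0.007. Its SE was then 0.12, with limma unadjusted p = 0.056. The interval of Tap2 was also wide, from -0.41 to 0.39. With 2 ENK KO arrays, differences smaller than these intervals could not be shown or excluded.

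The difference between the effects in spleen and in thymus was tested directly as an interaction. It passed for 0 of 10 genes, beside 0.00733% of all genes tested, and ranged from -0.11 for Tapbp to 0.12 for Erap1. Without replicate 28 the value for Erap1 was 0.18 ± 0.08 (limma unadjusted p = 0.0496, adjusted p = 0.978). The lists of heavy chains, helpers, regulators and other proteasome subunits also had 0 genes called in the spleen and thymus genotype comparisons. Without thymus ENK KO replicate 29, H2-Q4, a nonclassical heavy chain of a family of similar sequences, was called lower in thymus ENK KO, at -1.74 ± 0.24 (limma adjusted p = 0.0253). With that array it was at -0.68 ± 0.43 (limma adjusted p = 1). Nlrc5 and Irf1 were among the genes not called. The summed log2 level of the antigen presenting cell markers, given above, spanned a wider and lower range in spleen ENK KO than in spleen WT. The summed level of the platelet and red cell markers did not overlap between the genotypes in spleen, and Ppbp was lower in ENK KO, with a difference of -1.44 ± 0.17 (limma adjusted p = 0.0215), or -1.56 ± 0.15 without replicate 28 (adjusted p = 0.00377). The 4 B cell markers had a median difference of -0.39, with 4 of 4 below 0 and 0 called, and Klrk1 differed by -0.85 (limma adjusted p = 0.595). Both values include replicate 28. On that array Klrk1 was at 5.87, against 6.92 to 8.66 on the remaining spleen arrays, and Cd79b at 8.33, against 9.30 to 9.81. Cd79a, Ms4a1 and Pax5 lay within the range of the remaining spleen arrays there. The part of these cells in the spleen comparison was not tested.

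**Figure D5:**
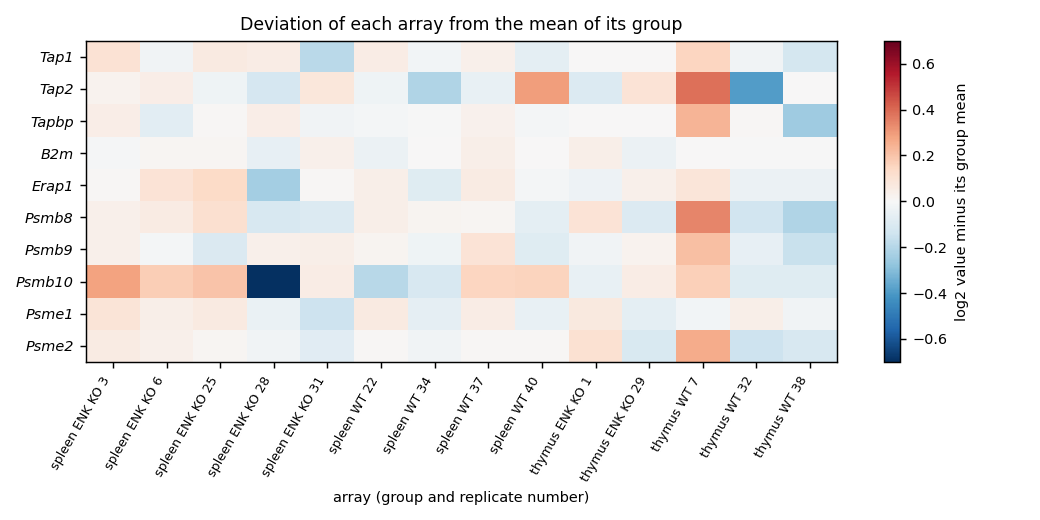
Log2 value minus the mean of its group (colour) for the 10 genes (rows) on the 14 arrays (columns). Thymus WT replicate 7 is above its group mean in 9 of 10 genes, and the darkest cell is Psmb10 on spleen ENK KO replicate 28.

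Single arrays set much of the spread within groups. Thymus WT replicate 7, the female of its group, was the highest of the 5 thymus arrays for 9 of 10 members, all but Psme1, as it was for 24.7% of all genes tested. Its values stood above the mean of its group by 0.18 on average over the 10 genes, and by 0.39 for Tap2 and 0.34 for Psmb8. Only for Psme1 could another thymus array, such as the other female sample, ENK KO replicate 1, be the highest, and there it was WT replicate 32. A part of sex in these ranks was not tested. Thymus WT replicate 38 was the lowest thymus array for 4, Tap1, Tapbp, Psmb8 and Psmb9, beside 16.5% of all genes. Spleen ENK KO replicate 28 was the lowest spleen array for 4, B2m, Psmb8, Psmb10 and Erap1, beside 17.9% of all genes.

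The SD within groups over all arrays was highest for Psmb10, at 0.28, and fell to 0.14 without replicate 28. It was 0.22 for Tap2 and 0.16 for Psmb8, beside a median of 0.096 over all genes tested. Tap1 and Tapbp had an SD of 0 in thymus ENK KO because their values were exactly equal there, and 3 of the 5 thymus arrays shared 1 value for each of these genes and for Erap1. Such ties lower the measured spread of these genes.

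The genes outside the pathway whose profile over the 14 arrays was most like the mean profile of the 10 were found by the root mean square distance between centred log2 values. The 5 nearest were Cotl1 (0.055), Mllt6 (0.059), Atic (0.061), Rps13 (0.064) and Smyd5 (0.066). Their differences between WT spleen and WT thymus lay between 1.16 for Cotl1 and 1.33 for Smyd5. Among the members the distance was 0.071 for Erap1 and 0.078 for B2m, and it was largest for Psme2 (0.48) and Tap2 (0.53), which lay on opposite sides of the mean profile in the size of their difference between tissues.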

How the data were processed

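Per the submitters' processing notes, the deposited log2 values were made by the authors with RMA, which corrects background, normalizes by quantiles and summarises probes per probe set. The sources used here do not give its software, version or genome build. Per the labels' protocols, 300 ng of total RNA was labelled as sense-strand cDNA. No depth applies to arrays, and their number limits the precision.

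Of 28213 probe sets, 21640 had 1 gene symbol, 1321 had several and 5252 had none in the annotation used. The first kind gave 19937 genes, each with its single-symbol probe set of highest mean. A gene was tested if 2 or more arrays exceeded 6.76, the 40th percentile of the table, which left 13641. All 14 arrays entered 1 limma fit (limma 3.58.1, R 4.3.3, group means, eBayes with a trend), with Benjamini-Hochberg adjustment over all genes tested and a threshold of 0.05. Within-array ratios were tested by exact two-sided permutation (scipy 1.17.1). The limma fit and the permutation test were tested on simulated data. The members, lists and rules were chosen with earlier results of these data known. All members were named, as were up to 4 genes per list with the smallest p, the regulators and the constitutive subunits, and the 5 nearest profiles. No replicate number occurs in 2 groups, so samples could not be matched by number and none were paired in the tests. The numbers do not show whether a spleen and a thymus sample came from the same mouse. Beyond age and sex, nothing states that samples of the same age, sex and group came from different animals, so p-values may in part reflect only technical spread between samples. Alternatives were other filters, scalings, variance models and covariates, array weights, each tissue alone, and arrays left out. The sex covariate was taken from the labels, also for spleen WT replicate 22, whose Xist level goes against its label. The ratios and list counts, and their alternatives, were added after seeing the data.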

Additional observations from a re-analysis of the deposited data

Results flagged for a closer look

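Of 20 combinations of a member and a group of at least 4 arrays, 2 held an array far from the others by Dixon's criterion. Chance marks about 5% of such groups. Psmb10 on spleen ENK KO replicate 28 was at 9.688, against 10.44 to 10.67 on the other arrays of its group. This is the library whose Cd4, Cd8a and Foxp3 levels go against its label, and whether that accounts for the Psmb10 value was not tested. Psme2 on spleen WT replicate 34 was at 11.05, against 11.08 on each of the others. The range of that group is so narrow that the gap is small beside the difference between tissues of 2.21.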

How the results depend on the processing

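The count of members called was the same under all alternatives run in 4 comparisons: 0 of 10 for ENK KO against WT in spleen and in thymus and for the difference between them, and 9 of 10 for spleen against thymus in ENK KO. In WT it was 9 of 10 under all but 1, and 10 of 10 without thymus WT replicate 7, where Tap2 was also called. No paired analysis was run, since the groups compared share no replicate number by which samples could be matched. Over all genes, the count called ranged from 0 (with sex and age as covariates) to 3 (without spleen ENK KO replicate 31) in spleen, against 1 as reported, from 0 (covariates) to 24 (array weights) in thymus, against 2, and from 0 (covariates) to 5 (without thymus ENK KO replicate 29) for the interaction, against 1. It ranged from 6633 to 11968 in ENK KO and from 6996 to 12840 in WT for spleen against thymus, with the filter at the 60th percentile and with no filter. Differences between genotypes near 0 changed sign in places, none of them called before or after, and the cause was not tested. In spleen these were B2m with quantile normalization (0.044) and median centring (0.021), Psmb8 with median centring (0.028), covariates (0.022) and without replicates 28 and 22 (0.039), Psme2 with median centring (0.024) and without those 2 arrays (0.0029), and Tap2 without the 2-month-old animals (-0.011). In thymus they were Tap1, Tap2, Psmb8, Psmb9 and Psme2 with array weights (0.025, 0.11, 0.025, 0.060 and 0.029), Tap1, Tap2 and Psmb9 with covariates (1.1e-04, 0.081 and 0.044), and Tap2 and Psmb9 without the 2-month-old animals (0.085 and 0.012). For the interaction they were Psmb10 with quantile normalization (-0.0038), Tap2, Psmb8 and Psme2 with array weights (-0.047, -0.028 and -0.037), and Tap2 and Psmb10 without the 2-month-old animals (-0.096 and -0.18). Leaving out 1 array at a time gave, in spleen, ranges of -0.023 to 0.0053 for B2m, -0.059 to 0.11 for Tap2, -0.031 to 0.026 for Psmb8 and -0.021 to 0.014 for Psme2. In thymus it gave -0.086 to 0.049 for Tap1, -0.21 to 0.18 for Tap2, -0.11 to 0.13 for Tapbp, -0.19 to 0.083 for Psmb8, -0.089 to 0.095 for Psmb9 and -0.16 to 0.074 for Psme2. For the interaction it gave -0.0037 to 0.076 for B2m, -0.17 to 0.22 for Tap2, -0.23 to 0.011 for Tapbp, -0.085 to 0.19 for Psmb8, -0.16 to 0.024 for Psmb9, -0.059 to 0.20 for Psmb10, -0.12 to 0.012 for Psme1 and -0.081 to 0.15 for Psme2. Between spleen and thymus the ranges that crossed 0 were -0.042 to 0.35 for Tap2 in WT and -0.26 to 0.020 for Psmb5 in ENK KO.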
